A study of Mus musculus with 16 samples.

Results

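Creatine kinases, adenylate kinases and AMP-activated protein kinase (AMPK) form a connected system that buffers and senses ATP, and the mRNA levels of 10 of its genes were examined in substantia nigra pars compacta (SNc) dopaminergic neurons with and without the mitochondrial calcium uniporter (MCU). The genes are Ckb and Ckmt1 (creatine kinases), Ak1, Ak4 and Ak5 (adenylate kinases), Prkaa1 and Prkaa2 (catalytic alpha subunits of AMPK), Prkab1 and Prkab2 (beta subunits) and Prkag1 (a gamma subunit). They were chosen by name and matched to Ensembl identifiers, and all 10 were found among the 25006 genes listed in the count files. Messenger RNA was collected with the RiboTag method, in which ribosomes carrying a tagged Rpl22l1 are immunoprecipitated together with the mRNA on them, and was then sequenced. The tag was delivered into the SNc by a Cre-dependent viral vector (AAV9), and Cre was driven by the dopamine transporter (DAT) promoter. Control mice (8, DAT-Cre+/-) were compared with 8 mice whose Mcu was floxed on both alleles (MCU-KO, DAT-Cre+/- MCU fl/fl), with 1 library per mouse, and mice of both groups carried a heterozygous DAT-Cre allele and received the vector. The control mice were bred from DAT-Cre+/+ and C57/BL6 mice and were not floxed littermates, and any difference of breeding cannot be told apart from the loss of Mcu. Tissue was taken at postnatal day 45 and 30 days after injection according to the sample labels.

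Creatine kinase moves a phosphate group between ATP and creatine, so that phosphocreatine can refill ATP where it is being used. Adenylate kinase interconverts ADP with ATP and AMP, and in doing so turns a small fall in ATP into a larger rise in AMP. AMPK is assembled from a catalytic alpha, a scaffolding beta and a nucleotide-binding gamma subunit. It is activated when AMP or ADP binds the gamma subunit and when an upstream kinase phosphorylates the alpha subunit, and it then restrains biosynthesis and promotes ATP-producing pathways. SNc dopaminergic neurons fire spontaneously even without synaptic input, and restoring their ion gradients after spikes takes ATP. The study asked how calcium entering mitochondria through the MCU bears on ATP supply in these neurons, and the comparison here asks whether the transcripts that buffer and sense ATP differ when that route is removed.

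The libraries held between 14129527 and 22016362 counts. A level of 3 counts, taken as the limit of detection, was between 0.136 and 0.212 CPM (counts scaled to the size of the library), and this limit covers counting error only. The targeted gene, Mcu, had normalized counts of 120, 132, 320, 328, 474, 695, 734 and 828 in the control mice and of 5.82, 45.03, 90.5, 246, 246, 248, 306 and 410 in the MCU-KO mice. Its mean was lower in MCU-KO (log2 fold change -1.19 ± 0.59, SE, 95% interval from -2.41 to 0.04), and the genotypes overlapped. A count over the whole gene also takes up reads from exons outside the floxed segment, so these counts check the genotype labels only in part. All 10 dopaminergic markers examined were measured in enough mice to be tested, and their summed level was 13623 to 17174 CPM in control and 12051 to 19374 CPM in MCU-KO. Astrocyte and oligodendrocyte markers were present too, with 16 of 16 tested, 13 of them higher in MCU-KO, 0 past the adjusted threshold and a summed level of 3218 to 6378 CPM in control against 3884 to 7772 CPM in MCU-KO. Markers of other neurons (7 of 7 tested) summed to 150 to 292 CPM in control and 130 to 397 CPM in MCU-KO. Microglial markers (8 of 8 tested) summed to 77.7 to 208 CPM and 73.7 to 286 CPM. Endothelial markers (5 of 6 tested) summed to 20.5 to 67.6 CPM and 16.4 to 55.9 CPM. In each of these lists 0 genes passed the adjusted threshold. Ddx3y, a Y-linked gene, was detected in 4 control and 5 MCU-KO mice.

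None of the 10 genes passed the test between genotypes. With edgeR's quasi-likelihood test, all 10 passed the filter on low counts, 0 had an adjusted p under 0.05 against 0.178% of the 12390 genes tested, and the adjusted p was 1.00 for each of them. At an unadjusted p under 0.05 there was 1 gene of the 10, Ak5, against 4.41% of all genes tested. With DESeq2, 0 of the 10 had an adjusted p under 0.05 against 0.578% of its 15563 genes, and the smallest adjusted p among the 10 was 0.613. The normalized counts of the genotypes overlapped for all 10 genes, where 0.258% of all genes tested did not overlap. The mean was higher in MCU-KO for 6 genes and lower for 4, and the median log2 fold change was 0.08, beside 0.0025 for all genes tested.

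How closely the data bound a difference varied greatly among the genes. For 7 of the 10, the 95% interval of the fold change lay within 2-fold in either direction, against 51.8% of all genes tested. Of these, Prkaa1 met the bound only narrowly, with an interval that reached 1.998-fold. For 4 of them, Ckb, Ak1, Prkaa2 and Prkag1, it lay within 1.5-fold, against 26.4%. The intervals of Ak5, Prkab1 and Prkab2 reached beyond 2-fold, so that for these genes a 2-fold difference lay within what the data allow.

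**Figure D1:**
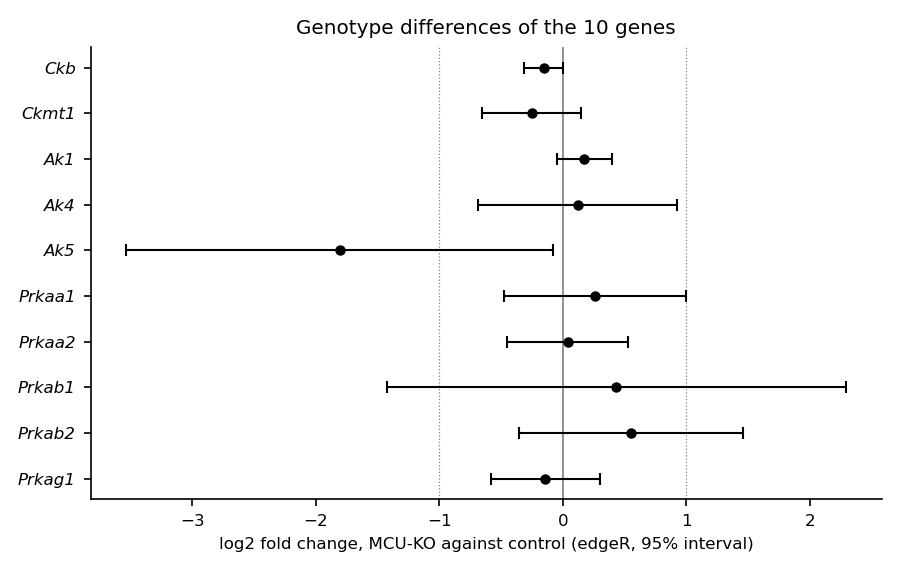
Log2 fold change of each gene in MCU-KO against control mice (x axis) from edgeR, with its 95% interval (bars) derived from edgeR's F statistic. The dotted lines mark 2-fold. The interval of Ckb runs from -0.31 to 0.01 and that of Prkab1 from -1.42 to 2.29, and only the interval of Ak5 does not include 0.

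Ckb encodes the cytosolic brain-type creatine kinase, and it was by far the most abundant of the 10 transcripts. The gene lies at chr12:111669361-111672338 on the minus strand (coordinates here and below are GRCm38, GENCODE M21), ranked 17 by count among all genes in control mice and took 0.229% of all counts. Its normalized count in control mice was lowest at 39016, had a median of 43255 and was highest at 50256. In MCU-KO mice the lowest was 32014, the median 39911 and the highest 46337. Of the 8 MCU-KO mice, 3 lay below the lowest control mouse and none lay above the highest. Averaged over 8 mice each, control was at 44267 ± 3807 (SD) and MCU-KO at 39820 ± 4531 (SD). The log2 fold change was -0.15 ± 0.08 (SE), and its interval put the MCU-KO level between 0.806 and 1.00 times that of the control. The unadjusted p was 0.0573 with edgeR and 0.0331 with DESeq2, and the adjusted p was 1.00 and 0.769. In these bulk samples, fewer tagged cells and less RNA per cell cannot be told apart. With the level of glial markers as a covariate, the log2 fold change of Ckb was -0.10. Of the stretches of 50 bases in the Ckb transcripts, 9.98% also occur in transcripts of its processed pseudogenes, so a part of its reads could not be assigned by sequence alone.

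Ckmt1 encodes the ubiquitous mitochondrial creatine kinase, which sits in the intermembrane space and charges creatine with newly exported ATP. The gene is at chr2:121357714-121363737 on the plus strand. Control mice ranged from 3876 to 11039 normalized counts with a median of 5810, and MCU-KO mice from 2679 to 7528 with a median of 4923. The highest value belonged to control mouse 5, and the next control mouse was at 6602. Mean counts were 6167 ± 2129 in control against 5182 ± 1544 in MCU-KO (SD, n = 8 each). The log2 fold change was -0.25 with an interval from -0.65 to 0.15. Without control mouse 5 the log2 fold change was -0.08, and without MCU-KO mouse 5 it was -0.15. In every control mouse Ckb was higher per kilobase of exon than Ckmt1, and it accounted for 86.2% ± 3.9 (SD) of the summed creatine kinase level in control mice and 87.1% ± 3.0 in MCU-KO mice. These shares depend on the length used. With the longest transcript in place of all exons, the control means were 807 CPM per kilobase for Ckb and 197 for Ckmt1. With all exons they were 791 and 128. The libraries also carried mRNA of glial and other cells, so the shares do not describe dopaminergic neurons alone. The muscle isoforms were all but absent: Ckm had at most 19 counts in a mouse and Ckmt2 had 0 counts in all 16.

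Among the 3 adenylate kinase genes, Ak1, the cytosolic isoform, was the most abundant per length. It is at chr2:32621758-32635058 on the plus strand. Its normalized count was lowest at 3478, had a median of 4842 and was highest at 5589 in control mice, and in MCU-KO mice it was lowest at 4529, had a median of 5323 and was highest at 6195. In the MCU-KO group 4 mice were above the highest control mouse and none was below the lowest, but the ranges overlapped. Mean counts were 4706 ± 723 in control against 5306 ± 649 in MCU-KO (SD, n = 8 each), for a log2 difference of 0.17 with an interval from -0.05 to 0.39. The unadjusted edgeR p was 0.121. Ak1 and Ckb, the most abundant of the adenylate and creatine kinase genes examined, had means that differed in opposite directions, each by less than the test could call.

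Ak4, at chr4:101419277-101466995 on the plus strand, encodes an isoform of the mitochondrial matrix. Control mice ranged from 49.5 to 761 normalized counts with a median of 615, and MCU-KO mice from 217 to 1080 with a median of 609. Control mouse 1 stood far below all other control mice, of which the next was at 416. The log2 fold change was 0.12 with an interval from -0.69 to 0.93, and without control mouse 1 it was -0.06. Of the 50-base stretches in Ak4 transcripts, 10.2% are shared with the pseudogene Ak3l2-ps.

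Ak5, at chr3:152462815-152668360 on the minus strand, encodes a cytosolic isoform found mainly in brain, and it had the largest fold change of the 10. Its normalized counts in control mice were 52.0, 58.3, 87.9, 149, 332, 510, 666 and 675. In MCU-KO mice they were 0, 11.7, 19.0, 57.2, 126, 138, 170 and 202. All 8 MCU-KO mice were below the control median of 240, and 3 were below the lowest control mouse, while 4 control mice stood within the MCU-KO range. Mean counts were 316 ± 269 in control against 90.4 ± 78.2 in MCU-KO (SD, n = 8 each). The log2 fold change was -1.81 ± 0.83 (SE), with an interval from -3.53 to -0.08. Its unadjusted p was 0.0413 with edgeR and 0.0185 with DESeq2, and neither passed the adjustment over all genes, with adjusted p of 1.00 and 0.613. Over all settings tried, including the omission of each mouse, the log2 fold change stayed between -2.08 and -1.55, the unadjusted p between 0.0185 and 0.0931, and the smallest adjusted p was 0.336. The control mice themselves fell far apart, from 52.0 to 675, with a coefficient of variation of 85.0%, and that of the MCU-KO mice was 86.5%.

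**Figure D2:**
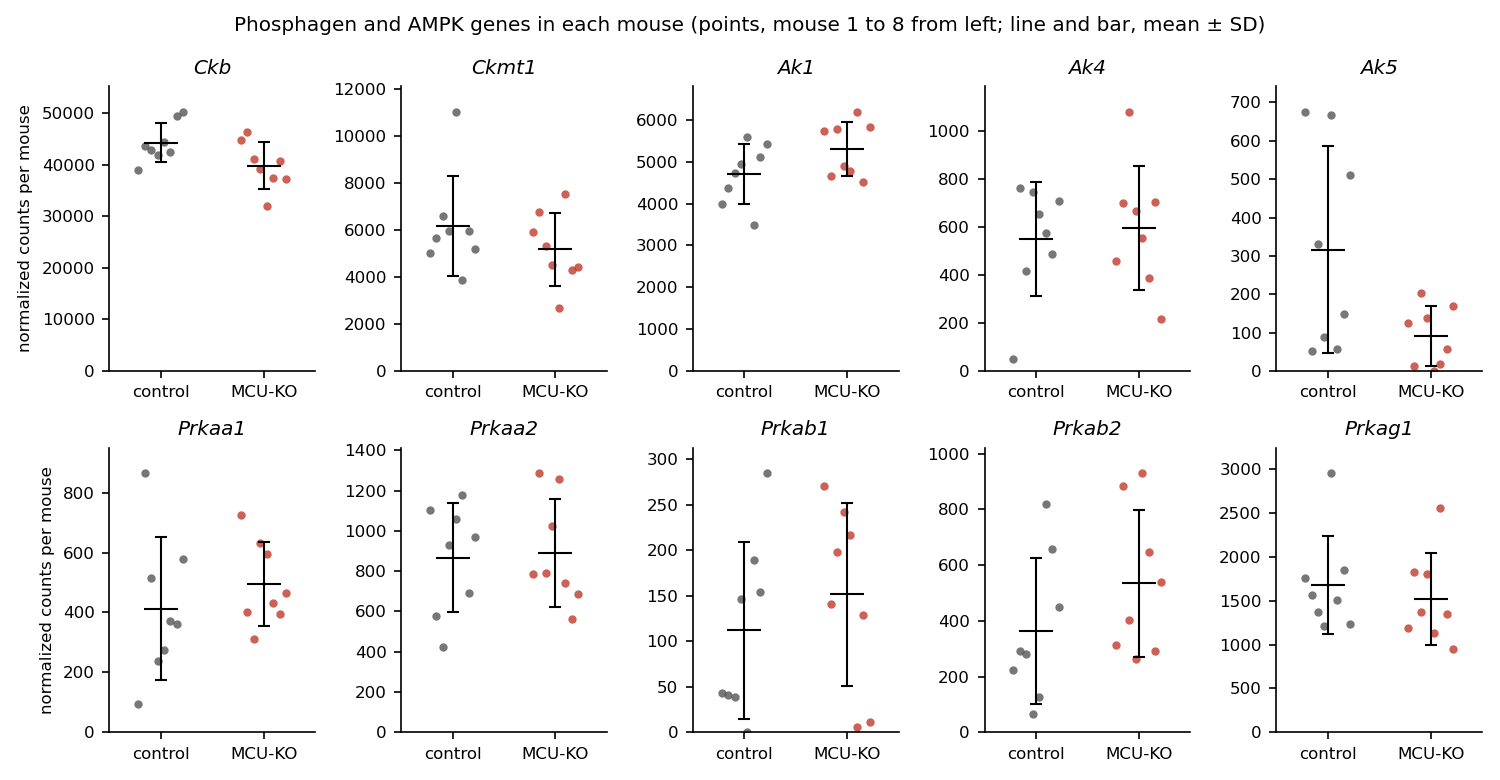
Normalized counts (y axis, counts divided by DESeq2's size factors) of each gene in the 8 control and 8 MCU-KO mice. Points are mice in the order of their numbers from left to right, lines are means and bars are SD. Ak5 counts span 52.0 to 675 in control and 0 to 202 in MCU-KO mice, and the genotypes overlap in all 10 panels.

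For the catalytic subunits of AMPK, Prkaa1 and Prkaa2, the genotypes differed by less than the spread between mice. Prkaa1 (chr15:5143861-5181899, plus strand) encodes the alpha subunit found in most tissues and ranged from 93.2 to 864 normalized counts in control mice, with a median of 368. In MCU-KO mice Prkaa1 ranged from 311 to 724 with a median of 448, and every MCU-KO value lay within the control range. Its log2 fold change was 0.26 with an interval from -0.47 to 1.00, and it was 0.11 without control mouse 1, 0.16 without MCU-KO mouse 1 and 0.51 without control mouse 2. The coefficient of variation of Prkaa1 was 57.9% in control and 28.5% in MCU-KO mice, a difference in spread that was not tested. Prkaa2 (chr4:105029874-105109890, minus strand), the isoform prominent in muscle and neurons, ranged from 424 to 1178 with a median of 950 in control and from 564 to 1285 with a median of 788 in MCU-KO. The means of Prkaa2 were 867 ± 271 and 892 ± 267 (SD, n = 8 each), for a log2 difference of 0.04 with an interval from -0.45 to 0.53. That interval bounds Prkaa2 between 0.732 and 1.44 times the control level.

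The beta subunits tether the alpha and gamma subunits and bind glycogen, and both were low and variable. Prkab1 (chr5:116013586-116024508, minus strand) ranged from 0 to 284 normalized counts with a median of 94.97 in control and from 5.44 to 270 with a median of 169 in MCU-KO. In 1 control mouse, number 5, no read was counted on Prkab1, and MCU-KO mice 6 and 8 had normalized counts of 5.44 and 11.04. Its log2 fold change was 0.43 with an interval from -1.42 to 2.29, and it was 0.24 without control mouse 5, 0.26 without MCU-KO mouse 1 and 0.79 without control mouse 8. Prkab2 (chr3:97658193-97673812, plus strand) ranged from 67.0 to 818 with a median of 286 in control mice. In MCU-KO mice it ranged from 265 to 929 with a median of 472, and 2 of them were above the highest control mouse. The means of Prkab2 were 364 ± 261 and 535 ± 264 (SD, n = 8 each), for a log2 difference of 0.55 with an interval from -0.35 to 1.46 and an unadjusted edgeR p of 0.22, and it was 0.84 without control mouse 6. With the glial covariate the log2 fold change of Prkab2 was 0.87, with the direction unchanged and 0 of the 10 genes past the adjusted threshold.

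Prkag1 (chr15:98812797-98831521, minus strand) encodes the gamma subunit expressed in most tissues and was the most abundant AMPK transcript. Control mice ranged from 1210 to 2949 normalized counts with a median of 1531, and MCU-KO mice from 947 to 2558 with a median of 1360. Control mouse 5 was the highest, as it was for Ckmt1 and Ak1, and MCU-KO mouse 6 was the highest of its genotype for the same 3 genes. Mean counts were 1678 ± 562 in control against 1521 ± 521 in MCU-KO (SD, n = 8 each), and the log2 fold change was -0.14 with an interval from -0.58 to 0.30. Without control mouse 5 it was 0.02. Of the 2175 exon bases of Prkag1, 950 overlap an exon of B130046B21Rik on the opposite strand. The strand setting of the counting is not given in the sources used here, so how reads in that stretch were assigned is not known. The level of Prkag1 per kilobase given below still uses the full exon length.

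Per length of exon, the 10 transcripts spanned a wide range of levels. In CPM per kilobase of exon, the mean level in control mice was 791 ± 69.1 for Ckb, 128 ± 44.8 for Ckmt1, 94.0 ± 14.9 for Ak1 and 39.9 ± 13.4 for Prkag1 (SD, n = 8 each). These led the other 6 genes by a clear step, since Prkag1 was higher than Ak4 in 8 of 8 control and 8 of 8 MCU-KO mice. The remaining levels were 6.13 for Ak4, 5.62 for Prkaa2, 4.81 for Ak5, 4.59 for Prkaa1, 3.68 for Prkab2 and 1.89 for Prkab1. Within this lower group no neighbour was above the next in all 8 control mice. Ak4 exceeded Prkaa2 in 6 of 8 control mice, Prkaa2 exceeded Ak5 in 4, Ak5 exceeded Prkaa1 in 3, Prkaa1 exceeded Prkab2 in 5 and Prkab2 exceeded Prkab1 in 6. The same counts in the 8 MCU-KO mice were 3, 8, 0, 3 and 6, so that there Ak5 was below both Prkaa2 and Prkaa1 in every mouse. Among the upper genes, Ckb was above Ckmt1 and Ak1 above Prkag1 in all 8 control mice, and Ckmt1 was above Ak1 in 7 control but only 3 MCU-KO mice. In MCU-KO mice the first 6 places by mean were the same, and Ak5 was in place 10 in place of 7. Calculated with the longest transcript the control order was the same for all 10 genes, and by the median over mice Ak5 and Prkaa1 changed places.

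**Figure D3:**
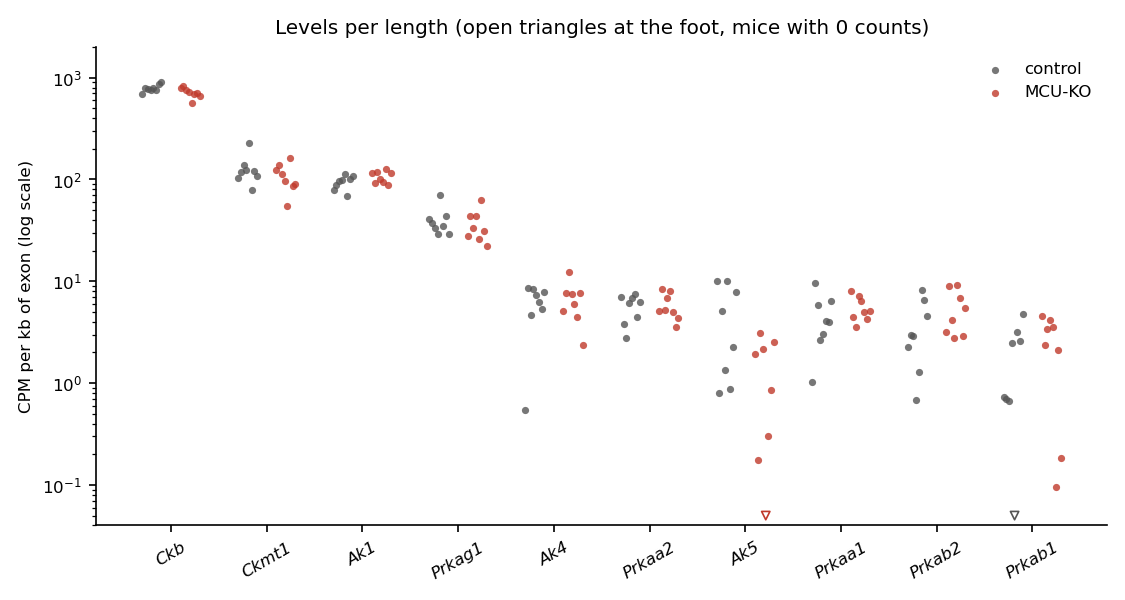
Level of each gene in CPM per kilobase of exon (y axis, log scale) in each of the 8 control and 8 MCU-KO mice, ordered by the control mean. Open triangles mark mice with 0 counts. The control means fall from 791 for Ckb to 39.9 for Prkag1 and then to 6.13 or less for the other 6 genes.

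The share of each AMPK subunit isoform at the mRNA level was taken from the same per-length values. The libraries also carried mRNA of glial cells and other neurons, so these shares do not give the make-up of the AMPK complex in dopaminergic neurons. Prkaa2 made up 56.8% ± 20.01 (SD) of the alpha subunit level in control mice and 51.2% ± 8.5 in MCU-KO mice, so neither alpha isoform dominated on average. In single mice the Prkaa2 share ran from 28.1% to 87.4% in control and from 38.8% to 65.2% in MCU-KO. Prkab2 made up 69.0% ± 23.8 of the beta level in control and 67.5% ± 23.0 in MCU-KO. This share also depends on the length used. With the longest transcript the control means were 3.75 CPM per kilobase for Prkab2 and 2.78 for Prkab1, against 3.68 and 1.89 with all exons. Prkag1 made up 86.7% ± 6.3 of the gamma level in control and 83.4% ± 6.7 in MCU-KO, with Prkag2 as the rest. Prkag3, the gamma isoform of skeletal muscle, was detected in a single MCU-KO mouse. Per kilobase of exon, Ak5 was at 4.81 ± 4.07 CPM in control and 1.39 ± 1.20 CPM in MCU-KO mice (SD, n = 8 each).

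The balance of isoforms within each mouse was compared for 5 pairs as the log2 ratio of counts plus 0.5, a value that depends on the depth of the library where a count is at or near 0. Of these pairs only Ak5 to Ak1 differed at an unadjusted p under 0.05. The coefficient of variation of Ak1 was 15.4% in control and 12.2% in MCU-KO mice, against 85.0% and 86.5% for Ak5. This ratio therefore mostly repeats the Ak5 difference given above and is not separate evidence. The pairs were also drawn from genes chosen with earlier results known, which the adjustment over 5 pairs does not cover. The log2 ratio of Ak5 to Ak1 was between -6.38 and -2.56 in control mice and between -13.27 and -4.84 in MCU-KO mice. Its mean difference, MCU-KO minus control, was -2.63 on the log2 scale (exact permutation test over 12870 splits of the mice, two-sided, p = 0.0225), and the p adjusted over the 5 pairs was 0.113 with the same exact test. One MCU-KO mouse had no count of Ak5 and its ratio rests on the added 0.5. Without that mouse, MCU-KO mouse 5, the difference was -1.75 (exact permutation p = 0.0441), and without control mouse 1 it was -2.35 (exact permutation p = 0.0505). Between medians in place of means it was -1.44 (exact permutation p = 0.0368), and with 5 added to each count -2.13 (exact permutation p = 0.0221).

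The other isoform ratios did not differ beyond the spread between mice. The ratio of Ckmt1 to Ckb differed by -0.09 on the log2 scale (exact permutation p = 0.649), and that of Ak4 to Ak1 by 0.11 (exact permutation p = 0.857). For AMPK, the ratio of Prkaa2 to Prkaa1 differed by -0.40 (exact permutation p = 0.457), which was -0.07 without control mouse 1, -0.62 without control mouse 3 and -0.66 without control mouse 2. That of Prkab2 to Prkab1 differed by -0.03 (exact permutation p = 0.986). In control mice Prkaa2 to Prkaa1 covered -0.58 to 3.56 and in MCU-KO mice 0.12 to 1.68, a narrower range that was not tested. Prkab2 exceeded Prkab1 in counts in 7 of 8 control and 8 of 8 MCU-KO mice.

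**Figure D4:**
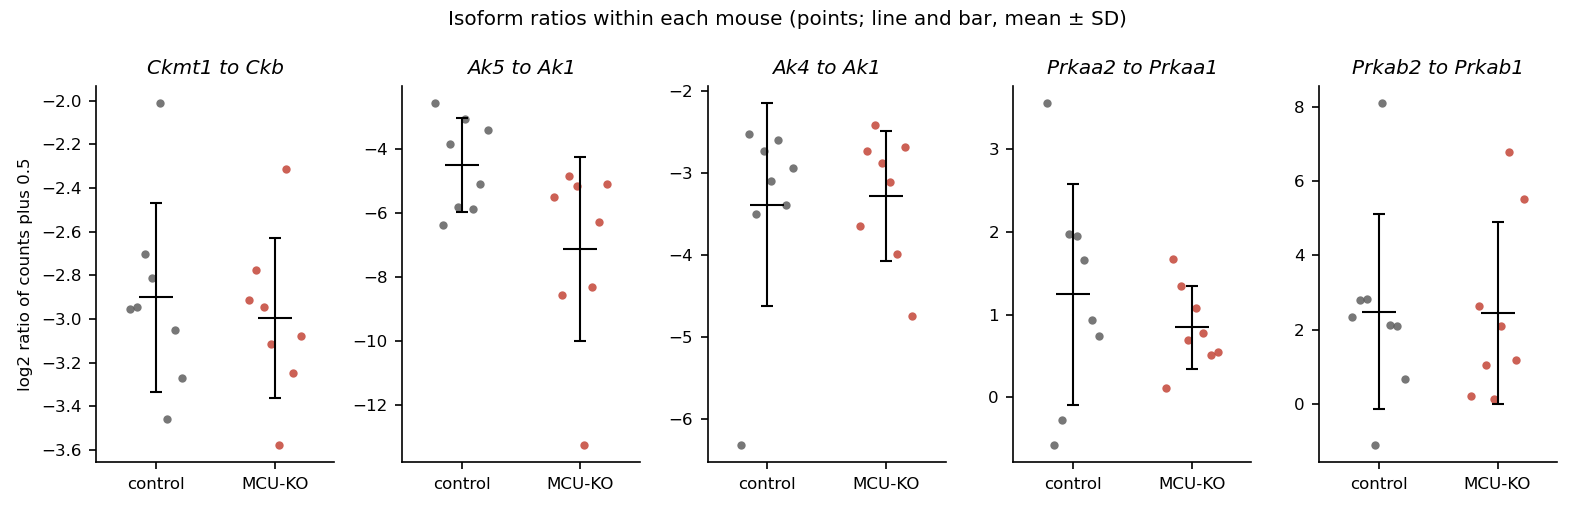
Log2 ratio of the counts plus 0.5 of 5 pairs of isoforms (y axis, each panel on its own scale) in the 8 control and 8 MCU-KO mice. Points are mice, lines are means and bars are SD. Ak5 to Ak1 lies between -6.38 and -2.56 in control and between -13.27 and -4.84 in MCU-KO mice, and the genotypes overlap in every panel.

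The spread between mice of the same genotype followed the level of the gene for most of the 10. The biological coefficient of variation, which edgeR estimates after removing counting noise, was 13.3% for Ckb, 16.7% for Ak1 and 34.2% for Prkaa2, and 106% for Ak5 and 116% for Prkab1. These values lay above the median of genes with like level (mean within 0.25 log2 CPM) for 5 genes and below it for the other 5. Ckmt1 stood apart, with a coefficient of 27.7% where the median of 322 genes of like level was 17.6%, above 98.8% of them. For Ak5, 80.6% of 914 genes of like level had a lower coefficient, and for Prkab1 49.6% of 762. The wide intervals of Prkab1 and of Ak5 went with a spread that many transcripts of their level have in these libraries.

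**Figure D5:**
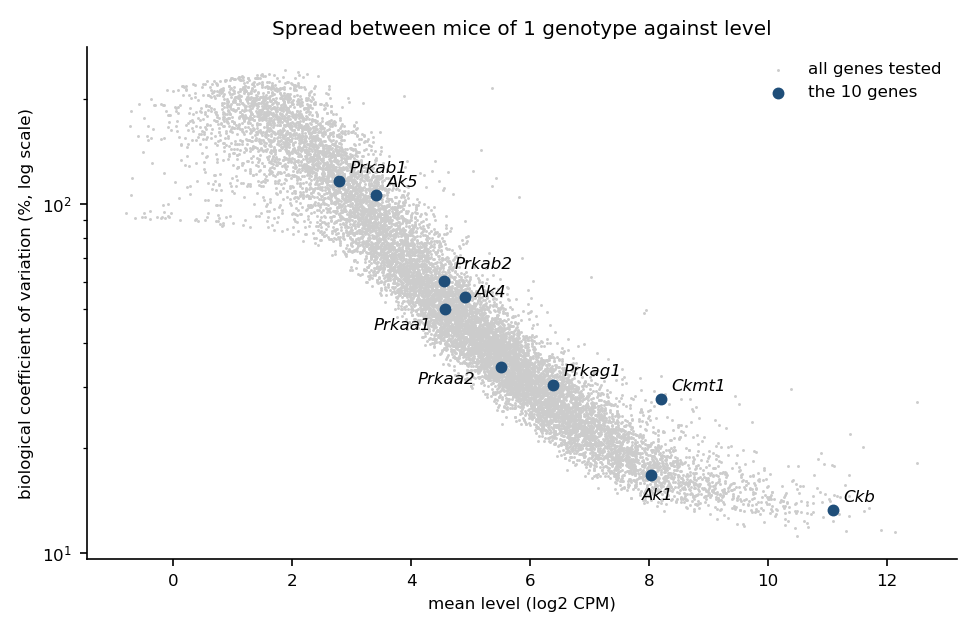
Biological coefficient of variation between mice of the same genotype (y axis, percent, log scale) against mean level (x axis, log2 CPM) for the 12390 genes tested (grey) and the 10 genes (blue). The coefficient falls from 116% for Prkab1 to 13.3% for Ckb, and Ckmt1, at 27.7%, lies above most genes of like level.

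Genes around these enzymes were examined as 60 further genes in 7 lists, of which 52 passed the filter on low counts. Of the 52, 0 had an adjusted p under 0.05 and 1 an unadjusted p under 0.05 with edgeR, against 0.178% and 4.41% of all genes tested. The mean was higher in MCU-KO for 26 and lower for 26, with a median log2 fold change of -0.0012. By list, the genes tested were 3 of 5 in creatine synthesis and transport with the muscle creatine kinases, 4 of 6 other adenylate kinases, 11 of 14 in adenine nucleotide and nucleoside diphosphate handling, 1 of 2 other AMPK subunits, 8 of 8 upstream of AMPK, 13 of 13 AMPK substrates and 12 of 12 AMPK-related kinases. The medians of the log2 fold change of the last 3 lists were 0.06, 0.14 and 0.04. The untested genes were Ckm, Ckmt2, Ak7, Ak9, Nme3, Ampd1, Nt5e and Prkag3.

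The gene with the smallest p of the 52 was Adss, which encodes adenylosuccinate synthase, an enzyme on the route from IMP to AMP. Its normalized count was 325 to 1100 in control mice and 1025 to 2018 in MCU-KO mice, and the overlap came from control mouse 7, whose 1100 was above 2 of the 8 MCU-KO mice. Mean counts were 733 ± 262 in control against 1293 ± 319 in MCU-KO (SD, n = 8 each). The log2 fold change was 0.82 ± 0.23 (SE), with an interval from 0.34 to 1.29 and an unadjusted edgeR p of 0.00178. Its adjusted p was 0.409 with edgeR and 0.0871 with DESeq2, so neither tool called it. Adss was the gene of its list named for its smallest p, and Nme1, a nucleoside diphosphate kinase, had the highest mean count there, with 19935 ± 2490 in control and 19114 ± 1790 in MCU-KO, and its log2 difference was -0.06 with an interval from -0.23 to 0.11.

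In the lists closest to creatine kinase and adenylate kinase, differences were small beside the spread. Gatm, which makes the creatine precursor guanidinoacetate, had 1200 to 3037 normalized counts in control and 1159 to 3212 in MCU-KO mice, with a difference of -0.14 (log2) and an interval from -0.57 to 0.29. Ak3, a mitochondrial matrix isoform that prefers GTP, had 1763 ± 546 and 2187 ± 871, a log2 fold change of 0.31 with an interval from -0.18 to 0.80. Ak7, an isoform known from motile cilia, did not pass edgeR's filter and is named here after its values were seen. It had 0 counts in all 8 control mice and counts of 5, 8, 83, 146 and 156 in 5 MCU-KO mice, with 0 in the other 3. DESeq2 gave Ak7 an adjusted p of 0.0228, and edgeR without a filter gave 0.198. This was DESeq2's only such call among the 60 genes, of which 4 had 0 counts in every mouse and could not be called. DESeq2 called 0.578% of the 15563 genes to which it gave an adjusted p.

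On the AMPK side, the partner subunit Prkag2 had 716 ± 265 normalized counts in control and 806 ± 172 in MCU-KO, and the log2 fold change was 0.17 with an interval from -0.33 to 0.66. Cab39, a scaffold of the Stk11 complex that phosphorylates AMPK, had 3251 ± 1011 and 3835 ± 729, a log2 fold change of 0.24 with an interval from -0.10 to 0.57. Among the substrates, both named genes act on mitochondrial shape. Mtfr1l had 2298 ± 525 in control and 2659 ± 202 in MCU-KO, and the log2 fold change was 0.21 with an interval from -0.08 to 0.50. Mff, the mitochondrial fission factor, had 9854 ± 1709 and 9857 ± 2090, with a log2 difference between -0.26 and 0.26 (95% interval). Of the related kinases, Mark2, which phosphorylates microtubule-associated proteins, had a log2 fold change of 0.24 with an interval from -0.23 to 0.71. Snrk had one of 0.09 with an interval from -0.22 to 0.40. The adjusted edgeR p was 1.00 for each of these AMPK-side genes.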

How the data were processed

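RNA-seq was performed on RiboTag mRNA from 8 control and 8 MCU-KO mice, and genotypes were taken from the sample labels. The study's figure legends count 1 further MCU-KO mouse, which was not analysed here. The authors trimmed the reads (cutadapt in the methods, Trim Galore in the submitters' processing notes), mapped them with STAR (mm10) and obtained counts per Ensembl gene from htseq-count. They deposited raw counts per gene without normalization. Versions, the Ensembl release and the strand setting are not given in the sources used here. The authors' own fold changes were not used.

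Gene symbols came from a reference list of gene names, which held a symbol for 24942 of the 25006 identifiers. Coordinates and exon lengths came from GENCODE M21, which is on the same build. Genotypes were compared with the quasi-likelihood test of edgeR 4.0.16 (R 4.3.3) after its default filter and TMM scaling, and p-values were adjusted by Benjamini-Hochberg over 12390 genes with a threshold of 0.05. These p-values set the difference between genotypes against the spread between mice. With 1 library per mouse, that spread includes any variation from library preparation. Normalized counts were scaled by size factors from DESeq2 1.42.0, and DESeq2 and limma 3.58.1 served as alternatives. Isoform ratios were compared by an exact permutation test over 12870 splits. Shared sequence was measured as stretches of 50 bases found in transcripts of another gene. The scripts were tested on simulated data. Tables and plots used Python 3.11.15, numpy 2.4.6, pandas 2.3.3 and matplotlib 3.10.9.

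The 10 genes and the other lists were chosen with earlier results of these data known. By rule, the named genes of each other list are those past the threshold, and where there is none, those of lowest p and of highest mean count. A covariate for Y-linked genes was chosen after seeing the data. A result on 1 further gene is not reported here.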

Additional observations from a re-analysis of the deposited data

Results flagged for a closer look

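Of 32 groups of 8 mice examined for a value far from the others, 6 held one, where a rate of 1 in 20 groups gives about 1.6. The groups were not independent, because the ratios were formed from counts of the same genes. Whether 6 exceeds chance was not tested. Control mouse 5 accounted for 3 of the 6. Its normalized count of Ckmt1 was 11039, where the next control mouse was at 6602, and its normalized count of Prkag1 was 2949, where the next was at 1847. Its log2 ratio of Prkab2 to Prkab1 was 8.10 against 2.83 in the next control mouse, since no read was counted on Prkab1 there. In control mouse 1 the log2 ratio of Ak4 to Ak1 was -6.32 against -3.50 in the next, and the normalized count of Ak4 was 49.5. In MCU-KO mouse 5 the log2 ratio of Ak5 to Ak1 was -13.27 against -8.58 in the next, with 0 counts of Ak5. The library of MCU-KO mouse 8 held 14129527 counts, where the other 7 libraries of its genotype held between 19897268 and 20582204.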

How the results depend on the processing

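None of the 10 genes passed the adjusted threshold in any of 10 other settings or when any mouse was left out. Over all genes, 22 passed in the main analysis, 90 with DESeq2 and 14 with a block for the mouse number, and between 18 and 24 when a mouse was left out. The numbers did not pair the mice (correlations of same-numbered mice from -0.061 to 0.031), and the 14 were among the 22, as the 22 were among the 90. The cause of these changes in number was not tested. Among the 60 other genes DESeq2 called 1, Ak7. The unadjusted p of Ak5 was 0.0734 with the block, and the block p of the ratio of Ak5 to Ak1 was 0.0156 (exact sign-flip test). As the numbers did not pair the mice, neither value adds to the tests without the block. Directions of small differences turned when a mouse was left out. The log2 fold change of Ak4 ranged from -0.059 to 0.24 (below 0 without control mouse 1 or MCU-KO mouse 3), that of Prkaa2 from -0.059 to 0.12 (below 0 without control mouse 2 or 3 or MCU-KO mouse 2 or 5) and that of Prkag1 from -0.29 to 0.025 (above 0 without control mouse 5). The difference in log2 ratio ranged from -0.19 to 0.032 for Ckmt1 to Ckb (above 0 without control mouse 5), from -0.31 to 0.32 for Ak4 to Ak1 (below 0 without control mouse 1 or MCU-KO mouse 3), from -2.95 to -1.75 for Ak5 to Ak1, from -0.66 to -0.07 for Prkaa2 to Prkaa1 and from -0.64 to 0.78 for Prkab2 to Prkab1, which was above 0 in 8 of 16 omissions and 0.25 with 5 added to each count, and was -0.59 between medians. Without changing direction, the log2 fold change of Prkaa1 ranged from 0.11 to 0.51 and that of Prkab1 from 0.24 to 0.79 over the omissions, and with the block they were 0.41 and 0.84. Prkab1 and Ak5 could not be fitted with at least 10 counts required in every mouse. The precision is limited by the spread between mice for the low genes.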
